A study of Saccharomyces cerevisiae with 12 samples.

Results

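Acetylated histone H4 (AcH4) was compared directly between cells of budding yeast that lack *RSC1* and cells that lack its paralog *RSC2*, and the stretches of DNA where the 2 deletion strains differed were described by position. The comparison used 6 of the 12 arrays of the series, 3 of *rsc1*Δ and 3 of *rsc2*Δ. The 3 wild type arrays (BY4741) entered only the estimate of each probe's spread, as did the 3 arrays of *rco1*Δ, and wild type levels are given beside the mutants as a description. All strains were grown in YPD. Each array was 1 of 3 biological repeats of its strain. Chromatin immunoprecipitated with an antibody against acetylated histone H4 carried the Cy5 dye and input DNA of the same strain the Cy3 dye, and both were amplified by 2 rounds of T7 transcription before labeling. The labels name no parent for the mutants and do not say whether the repeats came from separate isolates, so a trait of an isolate and an effect of the deletion cannot be told apart.

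RSC is an essential chromatin remodeling complex of yeast that slides and evicts nucleosomes and keeps the region upstream of many genes free of them. Rsc1 and Rsc2 are related subunits that are found in separate forms of the complex, and cells survive the loss of either but not of both. Both proteins carry tandem bromodomains, folds that bind acetylated lysine. Acetylation of the H4 tail is written mainly by the NuA4 complex, is removed by deacetylases such as Rpd3, and is typically high around the promoters and the beginning of transcribed genes.

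Each value below is the log2 ratio of IP over input of a probe, or the mean of it over neighboring probes, with the median of the array at 0. Probes were about 60 bases long and lay at positions of the array design (sacCer1), with a median distance of 257 bp between the starts of neighbors. Genes are not named at these positions, because the gene table used here is of another assembly. The deleted genes checked the labels. At the 10 probes over *RSC1* (YGR056W) on chromosome 7 the median log2 input of the 3 *rsc1*Δ arrays was -4.72, -6.76 and -3.11, against 0.29, 0.44 and -0.40 for the *rsc2*Δ arrays. At the 10 probes over *RSC2* (YLR357W) on chromosome 12 it was -5.32, -4.49 and -4.62 for *rsc2*Δ against 0.05, 0.08 and 0.51 for *rsc1*Δ. Each mutant had lost the DNA of its own gene and kept that of the paralog. These 20 probes were left out of all counts that follow. On the 6 arrays, input was well above background at 81.1% to 99.8% of the nuclear probes and IP at 82.3% to 98.9%.

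AcH4 differed between the deletion strains at short, scattered stretches and in both directions. Of 41460 nuclear probes, 202 were higher in *rsc1*Δ than in *rsc2*Δ (0.487%) and 183 were lower (0.441%), at an adjusted p under 0.05 in limma with Benjamini-Hochberg adjustment over all probes. Together they made up 0.929% of the probes. At all 385 called probes the 3 arrays of one strain lay apart from the 3 of the other, as they did at 16.3% of all probes. Bright probes, whose signals were well above background in both channels of every one of the 6 arrays, made up 66.2% of the called probes and 67.1% of all probes. Of the bright called probes, 114 were higher and 141 lower in *rsc1*Δ, and a fit of the bright probes alone called 183 higher and 280 lower (limma). The weakest call was a probe at chr16:904371-904429 with a difference of 1.54 and an adjusted p of 0.0496, and the first probe that missed was at chr11:68633-68692 with 1.47 (limma). With the scan as a block, over the arrays of scans that hold more than 1 strain, 106 probes were called, and with the replicate number as a block 226 (limma). The calls rested on the background-subtracted signals of the scanner software. With the median spot signal minus its local background, 2 probes were called (1903 at an unadjusted p under 0.05), with normexp correction 2 (1061), with loess after normexp 0 (1543) and with the values the authors deposited 0 (1131), all in limma. Leaving out single arrays also moved the number of calls, to 131 without *rsc1*Δ replicate 1, 147 without *rsc1*Δ replicate 3, 196 without *rsc2*Δ replicate 1 and 117 without *rsc2*Δ replicate 3.

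Neighboring calls formed 39 runs, defined as at least 3 successive probes called in the same direction. Of these, 21 runs with 73 probes were higher in *rsc1*Δ and 18 runs with 67 probes were lower, which was 36.4% of the called probes. There were 25 runs of 3 probes, 7 of 4, 5 of 5 and 2 of 6. Bright probes made up 48 of the 73 in the higher runs and 49 of the 67 in the lower runs. All probes were bright in 9 higher and 6 lower runs. A run spanned a median of 693 bp, with extremes of 403 and 1436 bp, which is the length of a few nucleosomes. A further 155 called probes had no called neighbor of the same sign. Since the calls chose the runs, the sizes given for them are descriptions and carry no test. There were 8 runs with the scan as a block and 21 with the replicate number as a block. The number of runs fell to 7 without *rsc1*Δ replicate 1, 18 without replicate 2 and 9 without replicate 3 of that strain, and to 15, 17 and 7 without *rsc2*Δ replicates 1, 2 and 3.

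In the runs that were higher in *rsc1*Δ the difference had a median of 1.76 and ranged from 1.32 to 2.19. The median level of these runs was 0.44 for *rsc1*Δ and -1.39 for *rsc2*Δ, with wild type at -0.64. In the runs that were lower in *rsc1*Δ the difference had a median of -1.73 and ranged from -3.17 to -1.42. There the median level was -1.13 for *rsc1*Δ, 0.94 for *rsc2*Δ and -0.35 for wild type. Wild type lay between the mutants at most runs, in 19 of the 21 higher ones and 17 of the 18 lower ones by the means. With every array counted, all 3 wild type arrays lay between all arrays of both mutants at 13 higher and 12 lower runs. Among all windows of 3 neighboring probes this was so at 0.722% with *rsc1*Δ highest and at 0.785% with *rsc1*Δ lowest, a background against which the runs, chosen for a large difference between the mutants, cannot be read as a test. The wild type mean was nearer to *rsc1*Δ at 11 of the higher runs and nearer to *rsc2*Δ at 10, and at the lower runs the split was 10 and 8.

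**Figure D1:**
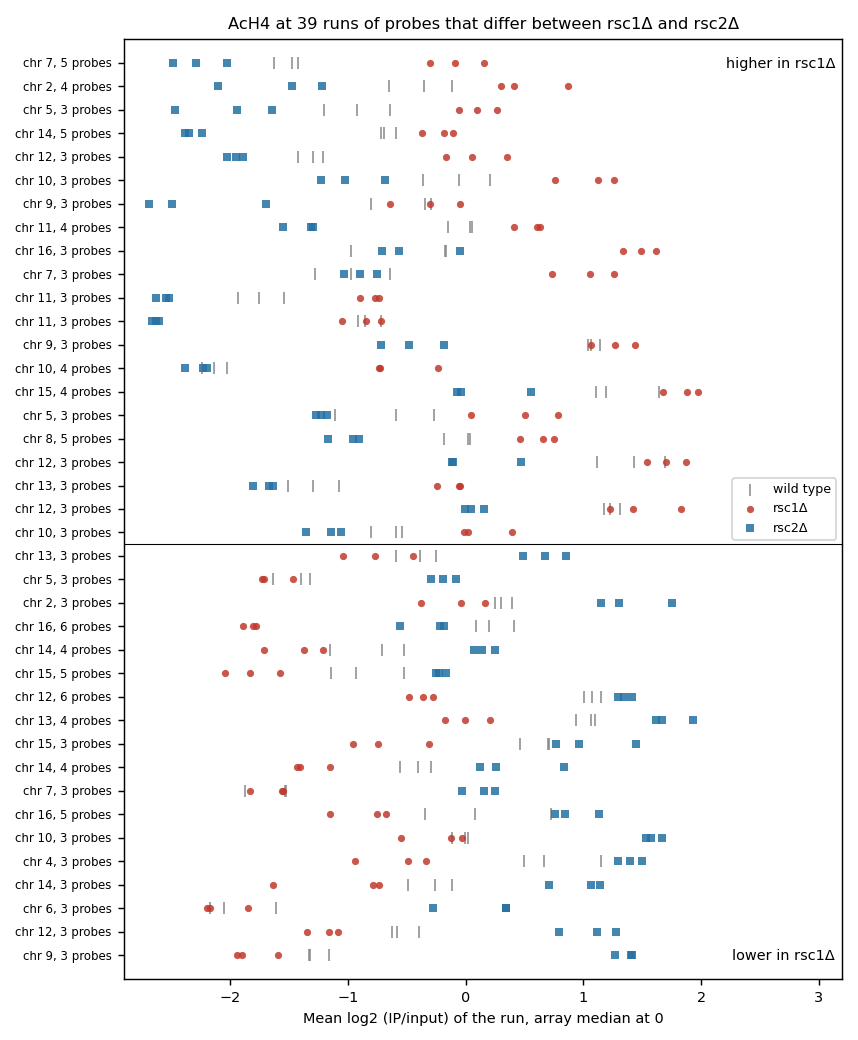
Mean log2 (IP/input) of each of the 39 runs, with 1 point per array for *rsc1*Δ (red circles), *rsc2*Δ (blue squares) and wild type (grey ticks), and the array median at 0. Red and blue points do not overlap in any run, the upper 21 runs are higher in *rsc1*Δ and the lower 18 are lower, and the grey ticks lie mostly between them.

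The *rsc1*Δ and *rsc2*Δ arrays of the same replicate number were scanned together, and within the 3 scans the runs differed by 0.94 to 3.31 in size. The sign within a scan carries no further information, because the strains were apart at all 39 runs, as they were at 22.2% of all windows of 3 neighboring probes. In other values of the same arrays, the strains were apart at 36 runs with normexp (9.48% of all windows), 36 with loess (9.96%), 38 with plain background subtraction (13.7%), 39 with the deposited values (16.2%) and 39 with a common spread of all arrays (22.7%). The difference lay in the IP channel. The IP signal differed in the same direction as the ratio at all 39 runs, with a median of 1.77 at the higher runs (1.36 to 2.15) and of -1.65 at the lower runs (-3.30 to -1.42), whereas the input signal differed by a median of 0.00054 and -0.03, with extremes of -0.41 and 0.29. At every run the input difference was thus far smaller than the ratio difference. The 2 probes on each side of a run had a median difference of 0.64 in the direction of the run, and 70 of the 78 flanks had its sign. Flanks adjoin probes chosen for a large difference, and some hold called probes themselves. How often neighboring probes share a sign over the whole array was not computed, so this count is no test.

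The strongest difference was a run of 3 probes at chr9:407488-408262, lower in *rsc1*Δ. Its mean log2 ratio was -1.90, -1.59 and -1.95 for *rsc1*Δ, 1.41, 1.41 and 1.27 for *rsc2*Δ and -1.33, -1.16 and -1.32 for wild type. By this mean the *rsc1*Δ and wild type arrays all lay below the array median and the *rsc2*Δ arrays all above it. None of the 3 strains overlapped. At single probes this was less sharp. Wild type was at -0.11, 0.15 and 0.05 at chr9:407488-407547, and *rsc2*Δ at -0.56, 0.27 and -0.04 at chr9:408203-408262. The mutants differed by -3.17, or 9.02-fold, and the adjusted p of its probes lay between 4.8e-05 and 0.00035 (limma). The difference was -2.66 with a common spread of all arrays, -2.44 after plain background subtraction, -2.08 in the deposited values, -2.02 with normexp and -1.10 with loess. At the 2 bright probes of the run the differences were -3.08 and -3.24. All 3 of its probes were called with any 1 of the 6 arrays left out, with the 6 arrays alone in the fit and with the scan as a block, 2 of them after plain background subtraction, with adjusted p of 0.0193 and 0.0389 (limma), 1 after normexp, with 0.0172 (limma), and none with loess, the deposited values or a common spread.

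At 3 other runs of the largest lower differences, wild type overlapped with *rsc1*Δ and the *rsc2*Δ arrays stood apart above both. At chr6:199944-200398 the level was -2.17, -1.85 and -2.19 for *rsc1*Δ and 0.35, -0.28 and 0.35 for *rsc2*Δ, while wild type had -1.61, -2.18 and -2.05. The difference was -2.21, and *rsc2*Δ replicate 2 was the lowest of its strain. At chr10:721921-722550, which lies 5523 bp from the outermost probe of its chromosome, *rsc1*Δ had -0.55, -0.12 and -0.03, *rsc2*Δ 1.57, 1.54 and 1.67 and wild type -0.00, -0.12 and 0.02. The *rsc2*Δ arrays lay close together and above all 6 others, by 1.83 on average over *rsc1*Δ. Only 1 of the 3 probes of this run was bright, with a difference of -2.01. The run at chr7:607547-608065 began 3392 bp beyond the last probe of the deleted *RSC1* stretch. Its level was -1.83, -1.56 and -1.55 for *rsc1*Δ, -0.04, 0.16 and 0.25 for *rsc2*Δ and -1.53, -1.87 and -1.54 for wild type. None of its probes was called without *rsc1*Δ replicate 1 or without *rsc2*Δ replicate 3.

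At a further 5 lower runs wild type lay between the mutants. At chr12:393032-393731 the level was -1.16, -1.35 and -1.09 for *rsc1*Δ, 0.79, 1.28 and 1.11 for *rsc2*Δ and -0.40, -0.62 and -0.59 for wild type, a difference of -2.26 between the mutants. Its 3 probes were called whichever array was left out. At chr14:464889-465543 *rsc1*Δ had -1.64, -0.79 and -0.74 and *rsc2*Δ 1.14, 0.71 and 1.07, with wild type at -0.29 ± 0.19 (SD, n = 3). Replicate 1 was the lowest *rsc1*Δ array of that run, but all 3 were below every wild type array. Only 1 of the 3 probes there was bright, with a difference of -1.60. At chr4:1021873-1022442 the level was -0.94, -0.49 and -0.34 for *rsc1*Δ against 1.49, 1.30 and 1.40 for *rsc2*Δ, with wild type at 0.77 ± 0.34 (SD, n = 3). The remaining runs of this class had smaller differences, -1.77 at chr16:342539-343814 (5 probes) and -1.73 at chr14:259526-260293 (4 probes). Wild type was at 0.15 ± 0.54 and -0.42 ± 0.13 (SD, n = 3) in them, and at the first of them its 3 arrays ranged from -0.34 to 0.72. The highest of these, replicate 1, had no value at 1 probe of the run, where replicates 2 and 3 had -1.42 and -0.76. Its mean thus covers the other probes only.

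At the remaining named lower runs wild type was nearer to *rsc2*Δ, as it also was at chr4:1021873-1022442, chr16:342539-343814 and chr14:259526-260293 above. At all but the last of these remaining runs wild type lay between the mutants as well. At chr15:462970-463372 the level was -0.96, -0.31 and -0.74 for *rsc1*Δ, 1.44, 0.77 and 0.96 for *rsc2*Δ and 0.71, 0.70 and 0.46 for wild type. The 3 *rsc1*Δ arrays were the only ones below 0. The longest lower runs held 6 probes each. At chr12:395058-396493 *rsc1*Δ had -0.48, -0.27 and -0.36, *rsc2*Δ 1.29, 1.34 and 1.41 and wild type 1.15, 1.00 and 1.07. The spread within each strain was small against the difference of -1.72, and wild type was below *rsc2*Δ by 0.27. At chr16:940516-941896, 946 bp from the outermost probe of the chromosome, *rsc1*Δ had -1.81, -1.78 and -1.89, *rsc2*Δ -0.22, -0.56 and -0.18 and wild type 0.09, 0.41 and 0.20. This was the single lower run at which both mutants lay below all wild type arrays, *rsc1*Δ further than *rsc2*Δ by 1.51. In 1 of its probes the IP signal was not well above background on any *rsc1*Δ array, so that the difference is a bound, at least 2.30-fold over the run (-1.20), and none of its probes was called without *rsc2*Δ replicate 3. One probe of it had no value in wild type replicate 1, where the spot carried an outlier flag. Of the 6 probes of this run 3 were bright.

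**Figure D2:**
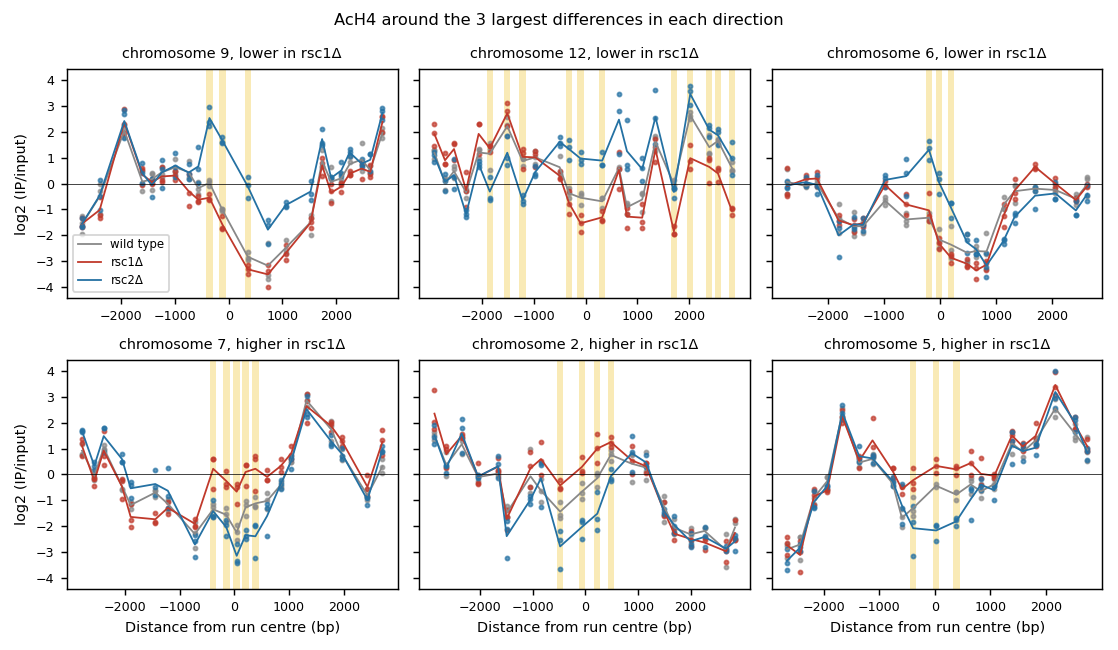
Log2 (IP/input) of single probes (points, 1 per array) and strain means (lines) around the centre of the 3 runs with the largest differences in each direction, with the called probes of runs shaded. Over the run at the centre, the *rsc2*Δ line rises above the others in the upper panels and the *rsc1*Δ line does in the lower panels. Outside the runs the 3 lines mostly follow the same peaks and troughs. The chromosome 12 panel also shades probes of the neighboring runs, and in the first of these the *rsc2*Δ line is the lowest.

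Among the runs that were higher in *rsc1*Δ the largest difference, 2.19, was at chr7:211963-212794, which with 5 probes was also among the longest. Its level was -0.09, -0.30 and 0.16 for *rsc1*Δ, -2.03, -2.29 and -2.48 for *rsc2*Δ and -1.43, -1.47 and -1.62 for wild type. All wild type arrays lay between the mutants and nearer to *rsc2*Δ. Only 1 of the 5 probes was bright, with a difference of 1.78. The difference of the run was 1.85 with a common spread and 1.39 after plain background subtraction. It was 1.25 in the deposited values, 0.86 with normexp and 0.65 with loess. The run at chr7:1013209-1013813, with 3 bright probes of 3, had 1.60, 1.69, 1.58, 1.44 and 0.82 in the same order. It thus had the larger difference of these 2 runs in all of these values but the common spread. At chr2:763072-764095 the level was 0.87, 0.41 and 0.30 for *rsc1*Δ, -2.11, -1.22 and -1.48 for *rsc2*Δ and -0.65, -0.36 and -0.12 for wild type, and at chr5:95616-96448 it was 0.09, -0.06 and 0.27, -2.47, -1.65 and -1.94, and -1.20, -0.64 and -0.92 in the same order. The strains were ordered alike in both, with *rsc1*Δ highest, *rsc2*Δ lowest and no overlap, and the mutants differed by 2.13 and 2.12. In each of them 1 probe was bright, of 4 and of 3 probes, and at these bright probes the differences were 1.32 and 2.01. At 1 probe of the chromosome 5 run wild type replicate 1 had no value, while replicates 2 and 3 had -0.38 and -0.50.

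The same order held at 5 more of the named higher runs. At chr12:912630-913146 the level was 0.35, -0.17 and 0.05 for *rsc1*Δ, -1.95, -1.89 and -2.03 for *rsc2*Δ and -1.30, -1.21 and -1.43 for wild type. All 3 probes of this run were bright, and each was called with any single array left out. At chr10:639077-639533 *rsc1*Δ was at 1.05 ± 0.26, *rsc2*Δ at -0.98 ± 0.28 and wild type at -0.07 ± 0.28 (SD, n = 3 each), so that wild type lay near the middle of a difference of 2.03. At chr11:189425-190040 the means were 0.55 ± 0.12, -1.39 ± 0.14 and -0.02 ± 0.11 (SD, n = 3 each) and wild type was nearer to *rsc1*Δ. The other 2 were runs of 5 probes, at chr14:458937-460146 with a difference of 2.10 and at chr8:456514-457635 with 1.63. In the former wild type, at -0.67 ± 0.07, was nearer to *rsc1*Δ (-0.22 ± 0.13) than to *rsc2*Δ (-2.32 ± 0.07; SD, n = 3 each), and 1 of its 5 probes was bright.

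At a pair of the named higher runs the *rsc2*Δ arrays overlapped with wild type and *rsc1*Δ stood apart above both. At chr7:1013209-1013813 the level was 1.26, 0.74 and 1.06 for *rsc1*Δ, -0.90, -0.75 and -1.03 for *rsc2*Δ and -0.64, -1.28 and -0.98 for wild type. At chr16:19425-20439, 6257 bp from the outermost probe, it was 1.49, 1.61 and 1.33 for *rsc1*Δ, -0.05, -0.71 and -0.57 for *rsc2*Δ and -0.98, -0.17 and -0.18 for wild type. In both AcH4 was above the array median on the *rsc1*Δ arrays alone, and the mean of *rsc2*Δ was 0.07 above that of wild type in the former. The opposite was seen at chr9:251207-251697, where *rsc1*Δ had -0.30, -0.05 and -0.64, wild type -0.35, -0.81 and -0.29 and *rsc2*Δ -2.69, -1.70 and -2.49. Here *rsc1*Δ overlapped with wild type and *rsc2*Δ alone was low, and at the 1 bright probe of 3 the mutants differed by 1.34. Across the 21 higher runs, *rsc1*Δ lay above all wild type arrays in 16 and overlapped with them in 5, and *rsc2*Δ lay below all wild type arrays in 18 and overlapped in 3. Across the 18 lower runs, *rsc1*Δ lay below wild type in 13 and overlapped in 5, and *rsc2*Δ lay above it in 17 and below it in 1. Among all windows of 3 neighboring probes, *rsc1*Δ lay above every wild type array at 13% and below at 9.23%, and *rsc2*Δ above at 16.3% and below at 15%. Runs chosen for a large difference between the mutants favor such separations, so these shares are a background and no test.

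Some runs lay within 10 kb of each other, and they were described after their values had been seen. Each group was cut to begin and end with a run. The high share of called probes in the groups, against 0.929% of all probes, thus follows largely from that choice. On chromosome 12, 3 runs fell in 4995 bp at chr12:391499-396493, where 14 of the 18 probes were called, 12 in the runs and 2 between the last pair of them, both lower in *rsc1*Δ. The first of them, at chr12:391499-392191, was higher in *rsc1*Δ, with 1.87, 1.71 and 1.54 against 0.47, -0.11 and -0.12 for *rsc2*Δ, and *rsc1*Δ overlapped with wild type (1.12, 1.70 and 1.43). None of its probes was called without *rsc1*Δ replicate 1 or *rsc2*Δ replicate 3. The next 2 were the lower runs from 393032 and 395058 already given. Over these few kilobases the order of the mutants turned from *rsc1*Δ above *rsc2*Δ to *rsc1*Δ below it, with wild type first at the level of *rsc1*Δ, then between, then near *rsc2*Δ. The input signal of these 3 runs was higher in *rsc1*Δ by 0.16, 0.24 and 0.29, against 0.19 for the median of the whole chromosome. Input is the denominator of the ratio and so enters it. The IP signal of the runs differed by 1.79, -2.01 and -1.42, and the ratio by 1.62, -2.26 and -1.72. The cause of the input difference was not tested.

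A turn of the same kind was seen on chromosome 14. In the 6607 bp at chr14:458937-465543, 9 of 23 probes were called. They were the 5 of the higher run at its beginning, the 3 of the lower run at its end, 4742 bp apart, and 1 between them, at chr14:461742-461801, that was higher in *rsc1*Δ. On chromosome 10 the 2 neighboring runs at chr10:228854-232952 were both higher in *rsc1*Δ, and 9 of the 15 probes in these 4099 bp were called, 7 of them in the runs. The other 2 lay between the runs and were lower in *rsc1*Δ, with 0.66, 1.38 and 0.38 against 2.89, 2.21 and 2.48 for *rsc2*Δ at chr10:230387-230446, and -0.35, -0.27 and -0.69 against 0.93, 0.86 and 0.60 at chr10:230734-230793. The first run was at 0.02, -0.01 and 0.39 for *rsc1*Δ, -1.15, -1.36 and -1.06 for *rsc2*Δ and -0.59, -0.54 and -0.80 for wild type. The second run was at -0.24, -0.74 and -0.73 for *rsc1*Δ, -2.20, -2.23 and -2.39 for *rsc2*Δ and -2.24, -2.02 and -2.14 for wild type. In the first *rsc2*Δ was below wild type, in the second it overlapped with it, and *rsc1*Δ was above wild type in both. No probe of the first run was called with the 6 arrays alone in the fit or with any array left out, its difference of 1.32 being the smallest of the 39.

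**Figure D3:**
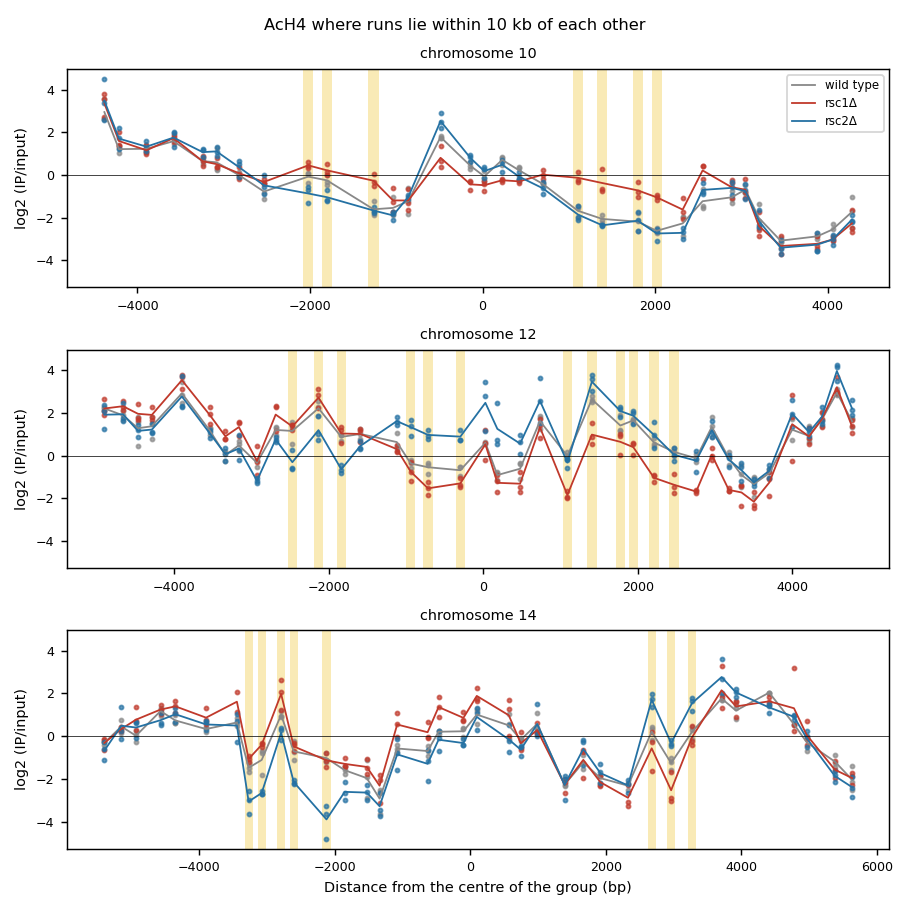
Log2 (IP/input) of single probes (points, 1 per array) and strain means (lines) across the 3 groups of runs that lie within 10 kb of each other, by distance from the centre of each group in bp, with the called probes of runs shaded. On chromosome 10 the *rsc1*Δ line lies above the *rsc2*Δ line in both shaded stretches, and on chromosomes 12 and 14 it passes from above to below.

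Single probes outside runs held differences of similar size. Among the bright ones, the largest rise was at chr11:617101-617160, with 2.69, 2.63 and 2.50 for *rsc1*Δ and 0.77, -0.67 and -0.31 for *rsc2*Δ, an adjusted p of 0.00785 (limma) and wild type between 1.18 and 3.37. It lay close to the higher run at chr11:616114-616578, where *rsc2*Δ was at -2.63 ± 0.03 and both *rsc1*Δ (-0.87 ± 0.17) and wild type (-0.83 ± 0.10; SD, n = 3 each) were higher. The other 4 were at chr2:598743-598801 (2.29), chr15:459824-459883 (2.15) and 2 adjoining probes from chr8:204629 (2.00 and 1.90). The largest falls were at 2 adjoining probes from chr8:6605, with -0.83, -0.60 and -1.42 for *rsc1*Δ and 1.98, 1.35 and 1.21 for *rsc2*Δ at the first, a difference of -2.46, and -2.43 at the second. The first of this pair was also called after normexp correction, with an adjusted p of 0.0293 (limma). The falls at chr7:1011654-1011713 (-2.32), chr1:206546-206597 (-2.16) and chr16:622035-622094 (-2.04) completed the 5.

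The share of called probes varied with the AcH4 level. When all probes were divided into 10 classes of equal size by their wild type level, which took no part in the contrast, 0.58% of the lowest class were called, 1.45%, 1.37%, 1.30% and 1.30% of the next 4, 1.01%, 0.72% and 0.84% of classes 6 to 8, and 0.43% and 0.27% of the highest 2. No run had its median probe in the highest 2 classes, 8 runs had it in class 3 and 6 in class 8. The lowest class was dim, with 11.6% of bright probes against 41.0% to 86.0% in the others. The median standard error of a probe's difference was 0.35 in the lowest class, 0.33 in the highest and 0.31 to 0.32 in between, and its part in these shares was not tested.

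**Figure D4:**
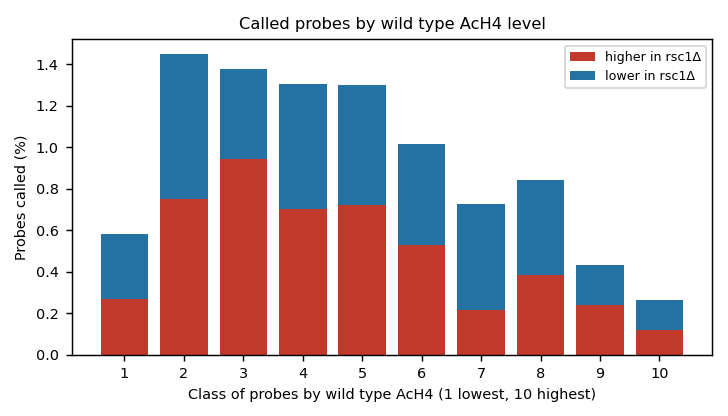
Share of probes called between *rsc1*Δ and *rsc2*Δ (%) in 10 classes of probes by wild type AcH4 level, with calls higher in *rsc1*Δ in red and lower in blue, stacked. The share is greatest in classes 2 to 5, at 1.30% to 1.45%, and smallest in class 10, at 0.27%.

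Called probes were also unevenly spread along the chromosomes. In the 20 kb next to the outermost probe of each chromosome end, 51 of 1786 probes were called (2.86%, against 0.842% elsewhere), of which 38 were lower in *rsc1*Δ (2.13% against 0.365%) and 13 higher (0.728% against 0.476%). They were found at 16 of the 32 ends, with at most 8 at one end, and 5 of the 6 runs there were lower. The median log2 ratio of these outer probes was -0.41, -0.38 and -0.39 for *rsc1*Δ, -0.26, -0.25 and -0.20 for *rsc2*Δ and -0.26, -0.28 and -0.29 for wild type. The *rsc1*Δ arrays were the 3 lowest, by 0.15 on average below *rsc2*Δ (p = 0.1 by an exact two-sided permutation test, which 3 arrays against 3 cannot go below), and the difference was -0.151, -0.125 and -0.189 within the 3 scans. It shrank to -0.08 with normexp correction, -0.02 with loess and -0.08 over the bright probes, with p of 0.3, 0.2 and 0.2 (exact permutation tests). Whether outer probes match more than 1 place in the genome was not analyzed here.

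Per chromosome, between 0.37% of the probes (chromosome 3) and 1.39% (chromosomes 1 and 9) were called, and chromosomes 1 and 3 held no run. The input signal set chromosome 12 apart by the size of its difference, though not by its test. There the median log2 input read 0.17, 0.17 and 0.12 for *rsc1*Δ, -0.03, -0.03 and -0.05 for *rsc2*Δ and -0.02, -0.03 and -0.03 for wild type, a difference of 0.19 between the mutants (p = 0.1 by the same exact permutation test, again its floor, and 0.16 after Benjamini-Hochberg adjustment for 16 chromosomes) that was 0.205, 0.2 and 0.176 within the 3 scans. Other chromosomes reached the same input p in that test, among them 1, 5 and 15, with differences of 0.11, -0.05 and -0.05. The IP signal of chromosome 12 was higher by 0.20 as well (p = 0.1, exact permutation test, and 0.4 after adjustment), and its AcH4 ratio differed by 0.01 (p = 0.7, exact permutation test). Chromosome 12 held 5 runs, and 1.22% of its probes were called.

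**Figure D5:**
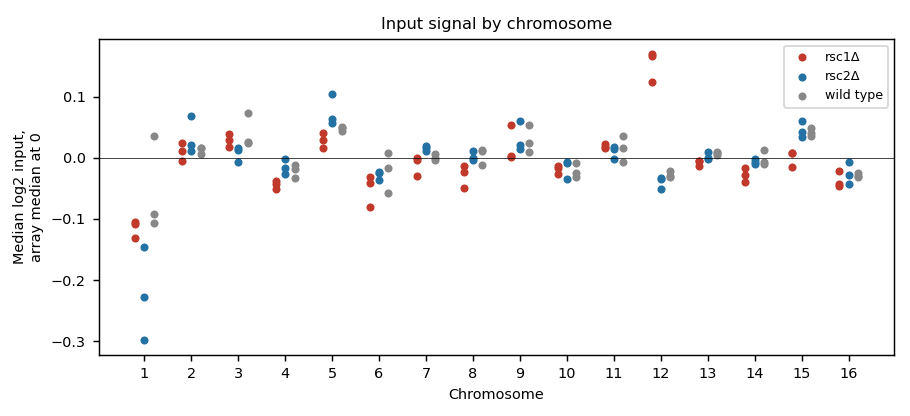
Median log2 input signal of each of the 16 chromosomes, with the median of the array at 0 and 1 point per array of *rsc1*Δ, *rsc2*Δ and wild type. On chromosome 12 the 3 *rsc1*Δ points lie between 0.12 and 0.17, above all 6 others, and on chromosome 1 the 3 *rsc2*Δ points, between -0.30 and -0.15, are the lowest.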

How the data were processed

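AcH4 ChIP DNA and input of 12 cultures were hybridized to Agilent tiling arrays of 45219 spots. The authors quantified them with Feature Extraction 10.5.1.1. Per the file headers, the processed signals are linear intensity values after background subtraction, spatial detrending and a linear dye normalization. The methods name median normalization within arrays and Aquantile between arrays (limma). The deposited value table holds log2 ratios, of which direction (IP over input) was settled by the scanner values (r = 1.0 on each array) and scale was not, since slopes on the plain log2 ratio ran from 0.66 to 1.37.

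Here log2 of the processed Cy5 over Cy3 signal was taken without control and outlier-flagged spots and centered on each array's median. The 41480 nuclear probes were fitted with lmFit and eBayes (limma 3.58.1, R 4.3.3), with 12 arrays in 4 groups and the contrast *rsc1*Δ minus *rsc2*Δ. Calls were made below an adjusted p of 0.05 (Benjamini-Hochberg), and the fit was tested on simulated arrays first. Probes overlapping the deleted genes were left out of counts and ended a run. Array medians were compared by exact permutation tests, which cannot go below p = 0.1 here. No spot was saturated. With 3 arrays a strain, their number sets the precision.

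Named runs are the 10 largest differences each way and the longest run each way. Named single probes are the 5 largest each way outside runs with strains apart and signals well above background on all 6 arrays. The members, classes and rules were chosen with earlier results of these data known. Genes of the fixed lists were not placed, since positions are on sacCer1 and the gene table is of R64, and no sequence is shown. Alternatives were other background corrections and normalizations, the deposited table, a common spread, filters, blocks, other sets of arrays and each array left out. Figures were drawn with matplotlib 3.10.9.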

Additional observations from a re-analysis of the deposited data

Results flagged for a closer look

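AcH4 differed between the 2 deletion strains at 385 probes by the limma contrast between the mutants, which is what marked them for a closer look. They were called from the processed signals, and the part of their number that other values call is given with the processing.

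The input channel, which the AcH4 comparisons use only as the denominator, was brighter over chromosome 12 in *rsc1*Δ than in *rsc2*Δ by 0.194 on the log2 scale. All 3 *rsc1*Δ arrays lay above all *rsc2*Δ and wild type arrays. On chromosome 1 the input was lower in *rsc2*Δ than in *rsc1*Δ by 0.11 (exact permutation test, p = 0.1, and 0.16 after adjustment over 16 chromosomes).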

How the results depend on the processing

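The 385 calls and 39 runs came from the processed signals and the fit of all 12 arrays. In limma, 2 probes and 0 runs were called with normexp correction, 2 and 0 with plain background subtraction, 0 and 0 with loess after normexp (1543 probes at an unadjusted p under 0.05), 0 and 0 with the deposited table (1131), and 0 and 0 with all arrays scaled to the same spread (1858). With only the 6 arrays in the fit, 156 probes and 11 runs were called, and 152 of the probes were among the 385. Scan as a block, over the arrays of scans that hold more than 1 strain, gave 106 probes and 8 runs. An adjusted p under 0.01 left 106 probes and 7 runs, and runs of at least 2 probes numbered 84. Leaving out each array in turn gave 117 to 298 probes and 7 to 18 runs, with fewer arrays in each of these fits. In settings added after the data had been seen, the 6 arrays alone gave 174 probes and 13 runs with the same spread, 1 and 0 with normexp, and 0 and 0 with plain subtraction (2049 at an unadjusted p under 0.05), with loess (1467) and with the deposited table (2915). A further setting of this kind left out the *rco1*Δ arrays. It gave 483 probes and 45 runs, and shared 373 probes and 39 runs with the fit of all 12 arrays. The causes of these changes were not tested. Probes well above background alone gave 463 calls and turned the split from 52.5% to 39.5% higher in *rsc1*Δ.

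For the 23 named runs, 552 values were computed under 24 settings. Of these, 221 moved by more than the spread between arrays and 0 changed sign. Many values could not move or were repeats, so these counts do not measure stability. Blocks, Aquantile, the 6 arrays alone and leaving out *rco1*Δ cannot change the mean difference of a run. Normexp, loess, plain subtraction, the deposited table and a common spread each gave the same values with the 6 arrays as with all arrays. All 23 runs moved with normexp and with loess, 22 with the deposited table, 21 with plain subtraction and 18 with a common spread. With arrays left out or blocked, the sign follows from the choice of runs in which the strains do not overlap. The median ratio to the values given was 0.84 with a common spread, 0.745 with plain subtraction, 0.641 with the deposited table, 0.618 with normexp and 0.362 with loess. Of the 39 runs, at least 1 probe was called in 34 with the 6 arrays alone, in 30 with the scan as a block and in 30 whichever array was left out. Every probe was called in 7, 6 and 3 runs in the same order. Calls on these same arrays chose the runs, so these counts are no test.

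The replicate number as a block gave 226 probes and 21 runs over all arrays and 75 and 5 over the 6 arrays. The *rsc1*Δ and *rsc2*Δ arrays of the same number shared a scan, but the labels do not say that a number marks a batch, and the numbers were not taken to pair the arrays. The deviations of same-numbered arrays correlated at -0.12, -0.32 and 0.25, and replicates 1 and 2 of each strain correlated best with another number. The chromosome 12 input difference was 0.194 with the replicate block (exact sign-flip permutation test, p = 0.25, the smallest that 3 pairs can give) and between 0.164 and 0.208 under its other alternatives. Dim probes limit what is measured below the array median, where 11.6% of the lowest class were well above background.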
